A study of Mus musculus with 2 samples.

Results

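The genes described here encode the receptors and ligands of vascular endothelial growth factor (Vegf) and angiopoietin signalling, 10 in all among 21887 protein-coding genes. They were chosen by name, with earlier results from these data known: the receptors Flt1, Kdr, Flt4, Tek and Tie1 and the ligands Vegfa, Vegfb, Vegfc, Angpt1 and Angpt2. Peaks of H3K27me3 (trimethylation of histone H3 at lysine 27) were assigned to a gene when they overlapped its RefSeq span plus 10 kb on each side by at least 1 bp. Earlier results from these peaks were known when the genes were chosen, and there is 1 ChIP library. Whether a gene held a peak is therefore a description, and no test was made of it. The peaks come from chromatin immunoprecipitation and sequencing (ChIP-seq) of whole sciatic nerve from male C57/BL6 mice aged 8 weeks, with an H3K27me3 antibody. The series has 1 ChIP library and 1 input library (chromatin without immunoprecipitation) of the same strain, sex and age. The labels give no treatment and no genetic change, and how many animals each library came from is not stated in them.

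H3K27me3 is written by Polycomb repressive complex 2 and is found at many genes that are silent or lowly expressed, often over CpG-rich promoters. Vegf ligands act on the receptor tyrosine kinases encoded by Flt1, Kdr and Flt4, which sit mainly on blood and lymphatic endothelial cells and drive vessel growth and permeability. The angiopoietins act on Tek, with Tie1 as its partner, and control vessel stability. In peripheral nerve these cells form the small vessels of the endoneurium and epineurium, beside the Schwann cells, fibroblasts and perineurial cells that make up most of the tissue.

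The deposited list held 6018 peaks covering 7.61 Mb, each with a score. The scores rise in steps of 2.5735 (99.83% fit such steps to within 0.05), and each score divided by that step is given here as reads. On this scale the lowest score is 10 reads and the median 14, and all peaks together held 185225 reads. A region with no listed peak is one that the authors' calling did not report, and its signal is unknown. Intervals below are exact 95% Poisson intervals and cover counting error only. They take no account of the floor of 10 reads in the list, nor of reads being derived from scores. For peaks near 10 reads they are a rough guide only. The nerve was not sorted, so a mark in few cells and a weaker mark in many cells cannot be told apart, and a peak cannot be given to a cell type. A peak list holds no expression values, so the labelled tissue could not be checked against marker transcripts.

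Of the 10 genes, 3 held a peak: Flt1 with 4 peaks and 124 reads, Flt4 with 3 peaks and 38 reads, and Vegfa with 1 peak and 11 reads. The other 7, which were Kdr, Tek, Tie1, Vegfb, Vegfc, Angpt1 and Angpt2, held none. In the background, 13.7% of protein-coding genes (2988 of 21887) held a peak by the same criterion. By role, 2 of 5 receptor genes and 1 of 5 ligand genes held a peak. The 8 peaks carried 173 reads (148.2 to 200.8), of which 71.7% lay at Flt1. A longer gene offers a wider window, and the share of genes with a peak was 11.5% under 10 kb, 12.2% at 10 to 20 kb and 12.2% at 20 to 50 kb. It was 15.8% at 50 to 100 kb, 18.1% at 100 to 200 kb and 32.3% above 200 kb. Flt1, Tek and Vegfc are all in the class of 100 to 200 kb, and Angpt1, the longest of the 10 genes at 252 kb, had no peak. The same 3 genes held a peak inside the span itself, against 9.77% of protein-coding genes, and within 2 kb of either gene end, against 8.59%. Flt1 and Flt4 held a peak at or above the median score (8.92% of protein-coding genes), and Flt1 alone held one of at least 20 reads (6.77%).

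**Figure D1:**
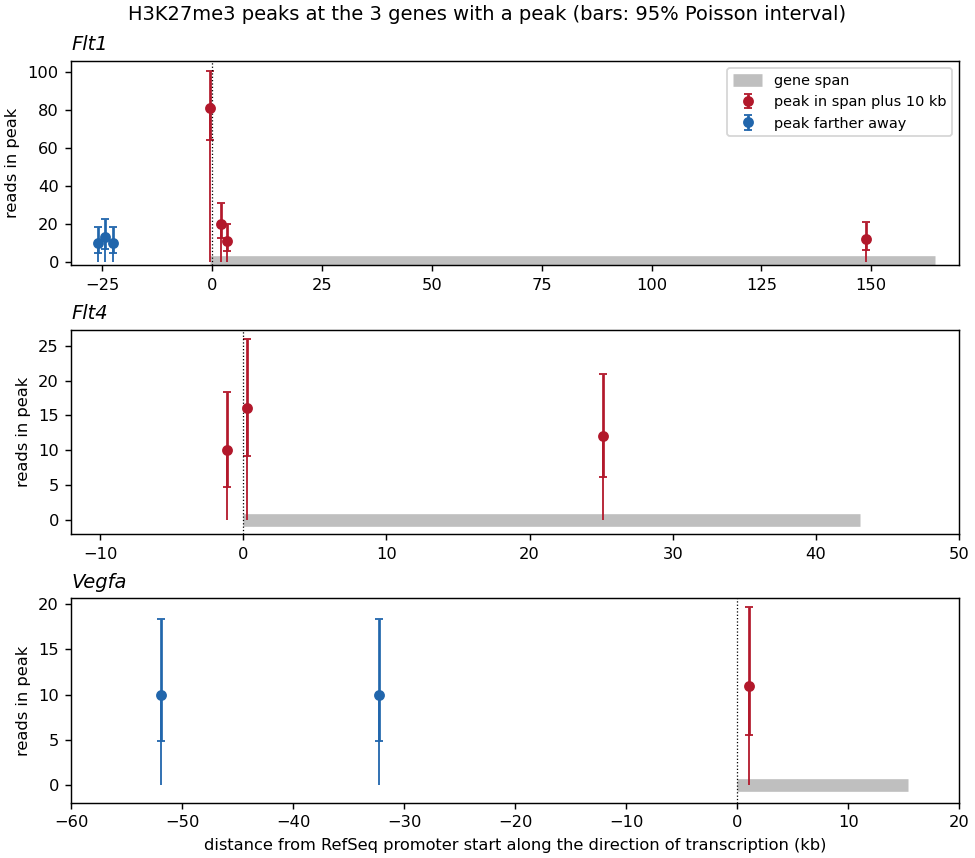
Position and reads of the H3K27me3 peaks at Flt1, Flt4 and Vegfa. The x axis is the distance in kb from the RefSeq promoter start along transcription, the y axis is reads per peak with 95% Poisson intervals, red marks peaks inside the gene span plus 10 kb, blue marks peaks farther away, and the grey bar is the gene span. The peak of 81 reads at the Flt1 start stands above every other peak drawn, all of which held 20 reads or fewer.

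Flt1 encodes VEGFR1, a receptor that binds Vegfa and Vegfb tightly with weak kinase activity and also acts as a decoy. The gene lies on chromosome 5 (147561604 to 147726438, mm10) and is transcribed from the minus strand. The main peak at Flt1 spanned 2767 bp (chromosome 5, 147725158 to 147727924) and held 81 reads (64.33 to 100.7). It ran from 1913 bp before the RefSeq promoter start to 853 bp after it, and so covered all 300 bases of the promoter window. By reads it ranked 390 of the 6018 peaks, with 93.5% of peaks holding fewer, and 90.8% of peaks were narrower. Downstream of it lay a peak of 777 bp with 20 reads (12.22 to 30.89), at 1722 to 2498 bp after the start. The next peak, of 500 bp with 11 reads (5.491 to 19.68), lay 3093 to 3592 bp after the start. The read intervals of these smaller peaks did not overlap that of the main peak, which is wider than both. In reads per kb, the peak of 20 reads had 25.7 and that of 11 reads 22.0, against 29.3 in the main peak. The density intervals of both smaller peaks overlapped that of the main peak, and the differences were not tested. Merged across gaps of up to 5 kb, the 3 peaks made a domain of 5506 bp with 112 reads, and 91.5% of the 3818 such domains in the library held fewer reads.

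The fourth Flt1 peak lay deep in the gene, 148305 to 149126 bp after the start, with 12 reads over 822 bp. Its density was 14.6 reads per kb (7.54 to 25.5), against 29.3 (23.2 to 36.4) in the main peak and a median of 21.0 over all peaks. The intervals of those 2 densities overlapped, and the difference was not tested. The 4 peaks covered 4866 bp, or 2.63% of the gene plus its flanks. The total of 124 reads (103.1 to 147.8) placed Flt1 at the 86.8th percentile of the 2988 protein-coding genes with a peak, whose median was 25 reads. Of those genes, 13.0% had 4 or more peaks. No exon annotation was used here, so the inner peak is not placed in an exon or an intron.

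Beyond the 10 kb limit, the Flt1 neighbourhood held another group of peaks. Upstream of the gene, 3 peaks of 500 bp with 10, 13 and 10 reads lay 21.9, 23.8 and 25.3 kb from the span, all inside the long non-coding RNA gene Gm35541. These fell outside the window and are not counted in the 124 reads. The nearest peak inside the window but off a gene was at Flt4, 894 bp from its span, so no peak of the 10 genes lay close to the limit on either side.

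Promoters that a peak covers (Flt1), touches (Flt4) or does not reach (Kdr and Tek) are compared here. The RefSeq promoter starts of Flt1, Kdr and Tek lie inside their gene spans, and that of Flt4 lies at the span edge. For each gene the 250 bases before its promoter start are shown. They are from RefSeq on GRCm38.p6, 5′ to 3′ on the transcribed strand, with each CpG in capitals. Flt1 is chr5:147726012-147726261 (minus strand), Flt4 is chr11:49609429-49609678 (plus strand), Kdr is chr5:75978456-75978705 (minus strand) and Tek is chr4:94739039-94739288 (plus strand).
Flt1: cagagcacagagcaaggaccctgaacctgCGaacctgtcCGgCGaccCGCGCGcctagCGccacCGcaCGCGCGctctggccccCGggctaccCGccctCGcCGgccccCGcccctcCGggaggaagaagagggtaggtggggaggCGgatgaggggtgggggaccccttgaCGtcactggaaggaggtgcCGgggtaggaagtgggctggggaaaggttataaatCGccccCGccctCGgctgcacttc
Flt4: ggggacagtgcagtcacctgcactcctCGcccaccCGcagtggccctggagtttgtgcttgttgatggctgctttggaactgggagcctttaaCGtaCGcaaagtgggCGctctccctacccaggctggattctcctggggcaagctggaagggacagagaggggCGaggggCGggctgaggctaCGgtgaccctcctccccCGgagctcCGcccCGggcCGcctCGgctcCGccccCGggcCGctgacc
Kdr: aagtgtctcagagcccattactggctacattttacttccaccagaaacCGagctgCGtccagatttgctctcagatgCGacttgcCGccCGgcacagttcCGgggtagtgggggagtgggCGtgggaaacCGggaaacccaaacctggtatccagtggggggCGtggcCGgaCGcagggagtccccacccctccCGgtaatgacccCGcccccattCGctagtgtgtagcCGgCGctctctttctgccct
Tek: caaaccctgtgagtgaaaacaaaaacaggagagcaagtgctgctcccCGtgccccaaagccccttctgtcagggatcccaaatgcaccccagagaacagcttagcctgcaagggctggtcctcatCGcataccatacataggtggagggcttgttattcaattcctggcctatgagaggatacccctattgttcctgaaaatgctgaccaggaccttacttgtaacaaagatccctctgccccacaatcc
Within these stretches Flt1 had 23 CpGs, Flt4 16, Kdr 16 and Tek 2, and Tie1, not printed, had 6. Over the full 300-base promoter windows the counts were 29 for Flt1, 26 for Flt4, 19 for Kdr, 7 for Tie1 and 3 for Tek. In those windows the receptor promoters with a peak had more CpGs than those without, which was not tested. The windows of the ligands Vegfc (35) and Vegfb (31), without a peak, had more than either.

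Flt4 encodes VEGFR3, the receptor for Vegfc that marks lymphatic endothelium in the adult. It lies on chromosome 11 (49609679 to 49652739, plus strand). Of its 3 peaks, the one with the most reads held 16 (9.145 to 25.98) over 625 bp and ran from 20 bp before the start to 604 bp after it (chromosome 11, 49609659 to 49610283). A peak of 500 bp with 10 reads, the lowest value in the list, lay upstream at 1393 to 894 bp before the start. The third held 12 reads over 645 bp, starting 24820 bp into the gene. All 3 intervals overlapped one another. The sum of 38 reads (26.89 to 52.16) lay below the interval of Flt1, and Flt4 stood at the 62.8th percentile of genes with a peak. Its peaks covered 1770 bp, 2.81% of its window, against 2.63% for Flt1, a longer gene.

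Vegfa encodes the main ligand of the family, made by many cell types and induced by hypoxia. Its only peak spanned 500 bp on chromosome 17 (46031061 to 46031560) and held 11 reads (5.491 to 19.68). The peak lay inside the gene, 817 to 1316 bp after the outer of the 2 RefSeq promoter starts, and touched neither promoter window. Vegfa stood at the 17.9th percentile of genes with a peak. Farther upstream, single peaks of 10 reads lay 32.0 and 51.7 kb from the span, in no annotated gene. The interval of the Vegfa reads overlapped those of each Flt4 peak.

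**Figure D2:**
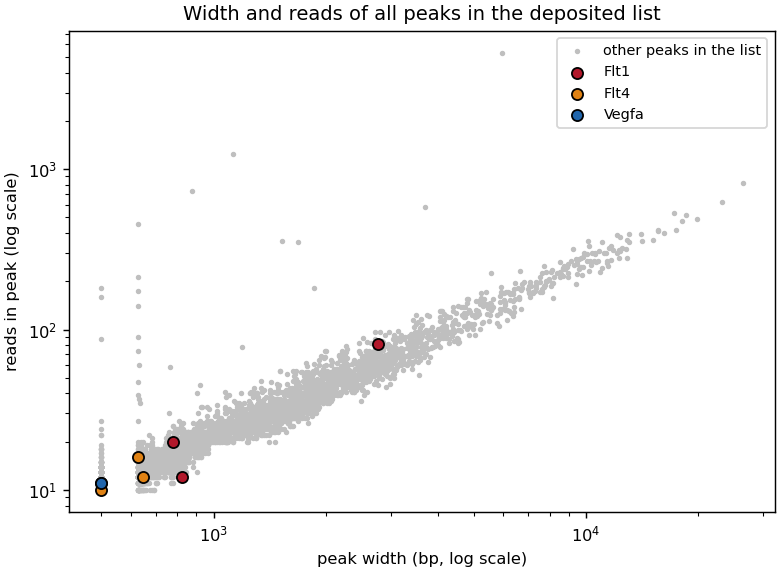
Width and reads of all 6018 peaks, both axes on a log scale, with the peaks at Flt1, Flt4 and Vegfa in colour. The main Flt1 peak of 2767 bp lies among the wider peaks, and the other 7 are 500 to 822 bp wide with 10 to 20 reads. The 500 bp peaks of Flt1 and Vegfa, both with 11 reads, fall on the same point.

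Most of the 8 peaks lay near a start, and the inner peaks of Flt1 and Flt4 did not. Among the 8 genes with a RefSeq promoter entry, Flt1, Flt4 and Vegfa had a peak within 2 kb of a promoter start, against 7.31% of 17492 protein-coding genes with an entry. A peak on the promoter window itself was found at Flt1, over 300 of 300 bases, and at Flt4, over 70 of 300 bases, against 4.75% of those genes and 4.42% of all promoter windows. Of the 8 peaks, 6 (75.0%) lay within 5 kb of a promoter start, against 34.5% of all peaks (2076 of 6018). These shares are not alike in kind, since every peak counted here was taken from around a gene.

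Kdr encodes VEGFR2, the receptor that carries most of the growth signal of Vegfa. It had no peak in its span (chromosome 5, 75932827 to 75979072) or within 10 kb. The nearest lay 356 kb away, inside Kit, and held 11 reads over 500 bp. The region was not empty of the mark, as 12 peaks lay within 1 Mb of Kdr, more than around a typical gene (75.9th percentile, median 5). Pdgfra, a related receptor gene within that distance of Kdr, had 4 peaks with 85 reads (67.89 to 105.1). Flt3, another on chromosome 5 (147330741 to 147400489), lies near Flt1 and far from Kdr. It had 2 peaks with 53 reads (39.7 to 69.33). Flt1 itself lay where peaks were dense, with 31 within 1 Mb of its span, its own 4 included (96.9th percentile).

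The angiopoietin receptor genes had no peak. Tek encodes the kinase that binds the angiopoietins, and its nearest peak was 3.34 Mb away in Elavl2, farther than for 95.8% of protein-coding genes. No peak lay within 1 Mb of Tek. Tie1, whose product pairs with that of Tek, had its nearest peak at 57.2 kb over the long non-coding RNA gene Gm40237. That peak held 182 reads over 1864 bp, a density of 97.6 reads per kb (84.0 to 113.0), against the median of 21.0. Such a density was outside the range of the peaks at Flt1, Flt4 and Vegfa, which ran from 14.6 to 29.3 reads per kb.

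The remaining ligand genes also lacked peaks, at differing distances from the mark. Vegfb, which encodes a ligand of VEGFR1, had its nearest peak 47.7 kb away in the potassium channel gene Kcnk4, with 26 reads over 1315 bp. Vegfc, which encodes the lymphatic growth factor read by VEGFR3, was 2.44 Mb from any peak (93.3rd percentile of all genes) and had none within 1 Mb. Angpt1 encodes the ligand that activates the Tek kinase, and its nearest peak lay 493 kb away in Rspo2, with 12 reads. Angpt2 encodes a ligand that can oppose Angpt1, and its nearest peak lay 355 kb away, with 10 reads. Angpt2 lies inside the span of Mcph1, and Vegfc overlaps the protein-coding gene Gm33153. The median distance from a protein-coding gene to a peak was 205.0 kb, so Kdr, Tek, Vegfc, Angpt1 and Angpt2 were farther than the median and Tie1 and Vegfb nearer. The placing of Tie1 rests on the dense peak over Gm40237, and its distance was not recomputed without that peak. Vegfa, which had a peak, also had 25 peaks within 1 Mb, its own included (93.8th percentile).

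**Figure D3:**
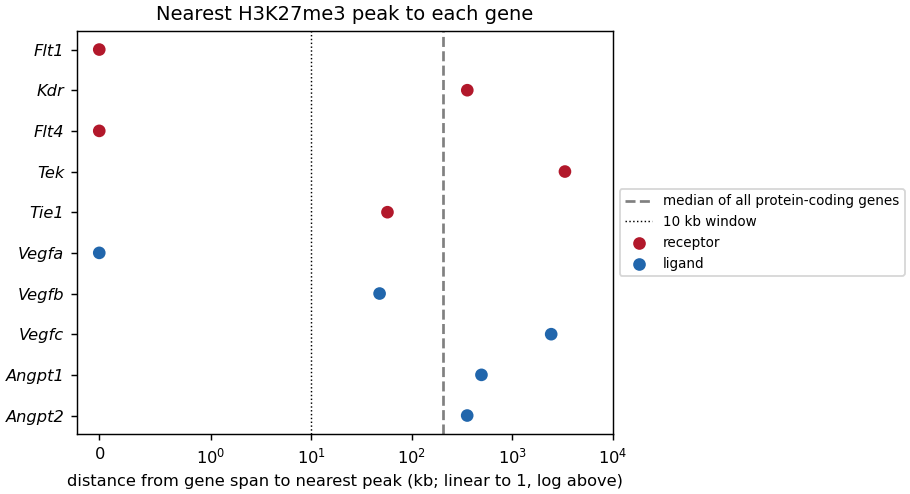
Distance in kb from each gene span to the nearest H3K27me3 peak, on an axis that is linear up to 1 kb and logarithmic above. Receptor genes are red, ligand genes blue, the dotted line is the 10 kb window and the dashed line the median of all protein-coding genes at 205.0 kb. Flt1, Flt4 and Vegfa are at 0, and Tek at 3.34 Mb and Vegfc at 2.44 Mb are the farthest.

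Promoter sequence was compared because it does not depend on the peaks. The CpG ratio is the observed number of CpGs over that expected from base content, in the window from 250 bases before to 50 bases after the start. It was 0.78 for Flt1, 0.70 for Flt4 and 0.56 for Vegfa at its outer start, and 0.69 for Kdr, 0.76 for Vegfb, 0.96 for Vegfc, 0.29 for Tie1 and 0.15 for Tek. The median over 21263 promoter windows of protein-coding genes was 0.57, and 0.68 over the 940 windows that a peak overlapped. Flt1 and Flt4 thus lay at percentiles 69.6 and 61.1, with Kdr (59.7) and Vegfb (67.7), which had no peak, beside them. Vegfc stood highest at percentile 88.7 and Tek lowest at 16.2.

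Over all promoter windows, the share overlapped by a peak was 0.235% in the lowest decile of CpG ratios and 8.42% in the sixth decile, and was 3.3% in the highest. Kdr was in the sixth decile, and Flt1, Flt4 and Vegfb in the seventh, where 7.1% of windows held a peak. Tek was in the second, where 0.894% did, and Vegfc in the ninth, where 4.51% did. In every decile most windows held no peak, and 4.42% of all windows held one. The decile of Kdr had the largest share, and why Kdr held no peak was not tested.

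**Figure D4:**
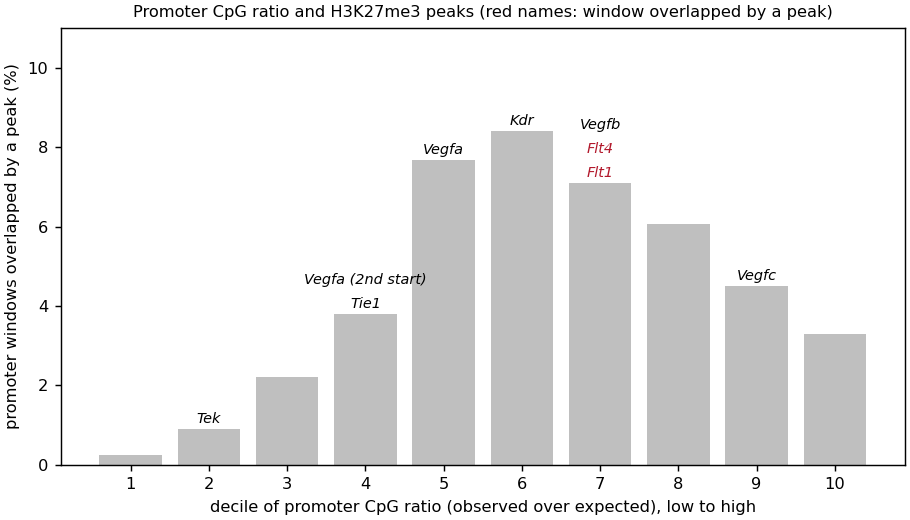
Share of promoter windows overlapped by an H3K27me3 peak, by decile of promoter CpG ratio from low to high, with each gene's name above its decile. Red names (Flt1 and Flt4) have a window overlapped by a peak, black names have none, and the bars rise to 8.42% in the sixth decile and are lower on either side.

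Short motifs were searched on both strands of the 300-base windows. The Flt1 window held TGACGTCA, the cyclic AMP response element, at positions -81 to -74 from the start, a motif present in 2.23% of promoter windows and 2.34% of those overlapped by a peak. It also held TATAAA at -31 to -26, found in 12.6% of windows and 8.09% of those overlapped by a peak. AGGAAG, a form of the motif read by ETS factors, which act in endothelial cells, occurred in Flt1 and Tie1. That motif was in 34.4% of windows and 29.7% of those overlapped by a peak. GGGCGG, the GC box, occurred in Flt1, Flt4, Kdr, Vegfa, Vegfb and Vegfc, and in 46.2% of all windows and 63.9% of those overlapped by a peak. ACGTG, the core of the hypoxia response element, occurred in the inner Vegfa window and not in the outer one. The inner window lies inside the gene span. No exon annotation was used, so whether the match is in coding sequence is not stated here. It was in 20.9% of windows and 21.4% of those overlapped by a peak. None of the Flt1 matches overlapped another. A match is a run of letters and not a measured binding site.

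Other genes of the pathway and its regulators were counted with the same window, from lists chosen with earlier results of these data known, and without a test. Over all protein-coding genes, 13.7% held a peak in that window. Of 6 further Vegf and angiopoietin components, 1 held a peak (16.7%): Ptprb, the phosphatase that acts on the Tek kinase, with 22 reads in 1 peak. Pgf, Vegfd, Angpt4 and the co-receptor genes Nrp1 and Nrp2 held none. None of 7 angiopoietin-like genes and none of 9 hypoxia response genes, including Hif1a, Epas1 and Vhl, held a peak. Lists this small allow no reading of these counts against the share of 13.7%. Of 13 Pdgf, Kit and Csf1 receptor and ligand genes, 4 did (30.8%), all of them receptors: Pdgfra (85 reads), Flt3 (53 reads), Pdgfrb (18 reads) and Kit (11 reads). The median was 0 reads in each of these lists and over all protein-coding genes.

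Transcription factors of endothelial cells held peaks in 13 of 21 cases (61.9%), against 13.7% of all protein-coding genes, with a list median of 20 reads against 0. The most reads were at Mecom (395 in 4 peaks), Tal1 (348 in 3 peaks) and Gata2 (293 in 3 peaks), regulators of blood and endothelial lineages. Fli1, Sox17, Hhex, Erg, Prox1, Sox7, Etv2, Hey2, Lmo2 and Sox18 also held peaks. Ets1, Ets2, Elk3, Lyl1, Hey1, Nr2f2, Klf2 and Klf4 held none. Transcription factors of other lineages were not counted here, so the share cannot be called particular to endothelial factors. Mecom (357.0 to 435.9), Tal1 (312.4 to 386.6), Gata2 (260.4 to 328.5) and Fli1 (152.8 to 206.2) lay above the interval of Flt1, 103.1 to 147.8 reads. Of 21 endothelial surface and effector markers, 6 held a peak (28.6%): Dll4 with 72 reads, Esm1 with 26, Nos3 with 15, Cldn5, Vwf and Esam. The other markers of that list, Pecam1 and Cdh5 among them, held none.

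Marker lists of the other cell types in the nerve gave 1 of 4 for lymphatic cells (Prox1, 113 reads), 2 of 8 for mural cells (Pdgfrb with 18 reads and Rgs5 with 12) and 2 of 7 for Schwann cells (Mbp and Sox10 with 11 reads each). These counts stand beside 13.7% of all protein-coding genes. The Schwann and mural markers with a peak held 11 to 18 reads, against 11 at Vegfa and 10 to 16 in the single peaks at Flt4. Prox1 and Pdgfrb stand in 2 lists each. The 10 Vegf and angiopoietin genes, at 30.0%, were within the span of these list shares, which ran from 0 to 61.9%, and lists this small allow no finer reading.

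**Figure D5:**
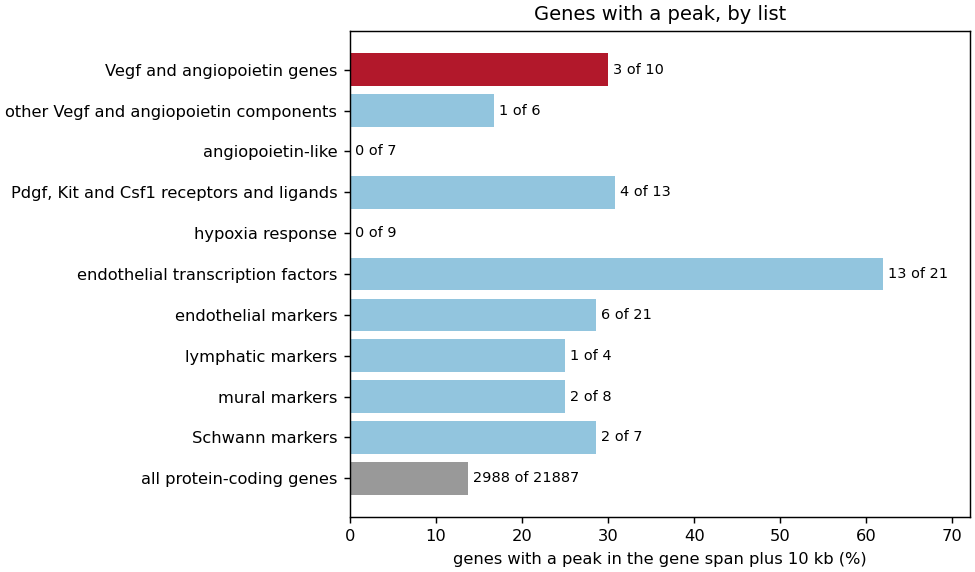
Share of genes with a peak in the gene span plus 10 kb, in percent, for the Vegf and angiopoietin genes (red), the related lists (blue) and all protein-coding genes (grey), with counts beside the bars. Endothelial transcription factors reach 61.9%, the Vegf and angiopoietin genes 30.0% and all protein-coding genes 13.7%.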

How the data were processed

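H3K27me3 ChIP-seq of sciatic nerve was analysed from the deposited peak list of 1 ChIP library. Per the submitters' processing notes, Bowtie and build mm10 were used. No label or header names the peak caller, its threshold or the role of the input, and input values were not analysed here. The authors gave each peak a score, whose meaning is not stated in the deposited file. Scores were divided by 2.5735, the step that best made them whole multiples, to give reads, and 10 of the 6018 lay over 0.05 from a multiple. Reads of a peak count whole, also where it extends past a window. The self-made steps (overlap, merging, step size) were tested on simulated data. Genes came from RefSeq (GRCm38.p6, the build of mm10), and strands and promoters from its promoter table, in which 8 of the 10 genes matched. Percentiles use midranks. All 10 genes are named, with every gene of the lists used that has a peak. Of the lists as first written, 1 gene was left out and is not reported here. The members and lists were chosen with earlier results of these data known. With 1 library there were no replicates and no p-values. Python 3.11.15, numpy 2.4.6, pandas 2.3.3 and scipy 1.17.1 were used. Alternatives varied the flank, the peak score, the overlap, the merging gap and the background. 2 were added after seeing the data: peaks on promoter windows, and the removal of peaks over 2.5 times the median reads per kb.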

Additional observations from a re-analysis of the deposited data

How the results depend on the processing

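Flt1, Flt4 and Vegfa were the genes with a peak at flanks of 0, 2, 5, 10 and 20 kb, at either gene end, with 50% of the peak inside, and without the densest peaks. Flanks of 50 kb added Vegfb, with 13 peaks and 242 reads over the genes, against 8 peaks and 173 reads with 10 kb. Keeping scores of 36.0 (the median) or more, Flt1 and Flt4 were left, with 3 peaks and 117 reads. With peaks of at least 20 reads only Flt1 was left (1 gene), against 6.77% of protein-coding genes. At that limit, the related and cell type marker lists together fell to 15 genes with a peak, against 27 of 94. Vegfa therefore rests on 1 peak near the lowest value of the list. The share of protein-coding genes with a peak was 13.7% with 10 kb flanks, 9.77% with none, 10.5% with 2 kb, 11.7% with 5 kb, 17.0% with 20 kb and 25.5% with 50 kb. It was 14.4% for autosomal genes, and by length 11.5% (under 10 kb), 12.2% (10 to 20 kb and 20 to 50 kb), 15.8% (50 to 100 kb), 18.1% (100 to 200 kb) and 32.3% (over 200 kb). The median percentile of the genes' promoters was 60.4 by CpG ratio and 78.0 by GC percent, and the cause was not tested. Merging within 1 or 10 kb left 5 domains. No paired analysis was possible because each group has 1 sample. No replicates exist, so nothing here measures variation between animals.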
